A study of Homo sapiens with 6 samples.

Results

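Telomerase is the enzyme that extends chromosome ends, and shelterin is the protein complex that covers them. The genes described here encode the catalytic subunit of telomerase (TERT), the protein that carries telomerase to Cajal bodies and telomeres (WRAP53), a nuclease that matures its RNA (PARN), the shelterin subunits (TERF1, TERF2, TERF2IP, TINF2, ACD and POT1) and a helicase that unwinds telomeric structures (RTEL1). They were taken as the rows of the deposited count table whose gene symbol is one of these names. All 10 names were found among 19672 genes, and all 10 passed the filter on low counts that left 13299 genes for testing. TERC, the RNA template of telomerase, was not analysed here.

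The libraries came from SW620, an established human colorectal cancer line with an epithelial origin, and each group has 2 of them. C3 and C6 are derivatives of SW620 that stably express a lentiviral short hairpin RNA (shRNA) against DKC1, and the scramble cells carry a non-targeting hairpin from the same kind of pLV vector. All 3 groups were kept under puromycin, are labelled as otherwise untreated and share 1 batch label. DKC1 encodes dyskerin, a pseudouridine synthase that also binds and stabilises the RNA of telomerase, and so the series allows the question of which telomerase and telomere genes differ when dyskerin mRNA is reduced. The labels leave unsaid which hairpin each line carries and whether a line is 1 clone. The genotype field of C3 library 1 reads as a control, against its title, and the title was used. The titles call the libraries biological replicates without saying how cultures were separated, so that p-values measure only the spread between these libraries.

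DKC1 checked the labels. Its level was 144 and 149 CPM (its count scaled to the library's size) in the C3 libraries, 70.3 and 67.1 CPM in the C6 libraries, and 320 and 315 CPM in the scramble libraries. C3 therefore held 46.3% and C6 21.7% of the scramble level, and the library with the contradictory genotype field was as low in DKC1 as the other C3 library. Library totals lay between 26077966 and 31021000 counts, at which 3 counts are worth 0.0968 to 0.114 CPM. Of 15 colorectal epithelial markers, 14 were tested, and CDX1 was at 0 in every library. Their summed level was 7138 to 7337 CPM in C3, 9416 to 9511 CPM in C6 and 8826 to 9475 CPM in scramble libraries. The immune markers PTPRC, CD3E and MS4A1 were at 0 throughout, with sums of all 9 immune markers of 12.3 to 13.2, 35.2 to 42.7 and 18.2 to 19.3 CPM in C3, C6 and scramble libraries. The fibroblast markers COL1A2, COL3A1, DCN and FAP and the endothelial marker CDH5 were likewise at 0. The fibroblast sums were 30.7 to 35.1 CPM in C3, 18.9 to 20.1 CPM in C6 and 23.3 to 24.4 CPM in scramble libraries, and the endothelial sums 3.36 to 3.45, 5.68 to 6.15 and 5.51 to 6.43 CPM in the same order. The mitochondrial share of counts was 6.39% to 6.49% in C3, 6.63% to 6.87% in C6 and 5.92% to 6.02% in scramble libraries. The part of these differences in the results below was not tested.

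Chromosome ends shorten with each round of replication unless telomerase adds repeats back. In most body tissues TERT is silent or nearly so, and cancers commonly regain it, while the shelterin genes are broadly expressed. TERF1 and TERF2 bind double-stranded repeats, POT1 binds the single-stranded overhang, ACD (the protein TPP1) recruits telomerase and holds POT1, TINF2 (TIN2) bridges the others, and TERF2IP (RAP1) rides on TERF2. Inherited defects in DKC1, TERT, WRAP53, PARN, TINF2, ACD, POT1 and RTEL1 cause telomere biology disorders in people.

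The promoters of the 4 members that were higher in C6 than in scramble cells are shown. They were picked by those calls, and whether their letters bear on the levels was not tested. The letters are the 250 bases before each annotated start (RefSeq, GRCh38.p14), read 5′ to 3′ on the minus strand, on which all 4 genes lie. They cover chr5:1295069-1295318 for TERT, chr14:24242675-24242924 for TINF2, chr16:67660261-67660510 for ACD and chr7:124929826-124930075 for POT1. Capitals mark an E-box (CACGTG, the element bound by MYC with MAX), a GC box (GGGCGG or, on the other strand, CCGCCC) or an ETS element (CCGGAAG or its reverse complement).
TERT: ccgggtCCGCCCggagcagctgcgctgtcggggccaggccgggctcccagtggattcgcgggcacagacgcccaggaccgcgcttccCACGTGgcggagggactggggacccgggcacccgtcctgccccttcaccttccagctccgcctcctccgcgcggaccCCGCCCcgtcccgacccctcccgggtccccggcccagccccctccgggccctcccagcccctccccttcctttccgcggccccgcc
TINF2: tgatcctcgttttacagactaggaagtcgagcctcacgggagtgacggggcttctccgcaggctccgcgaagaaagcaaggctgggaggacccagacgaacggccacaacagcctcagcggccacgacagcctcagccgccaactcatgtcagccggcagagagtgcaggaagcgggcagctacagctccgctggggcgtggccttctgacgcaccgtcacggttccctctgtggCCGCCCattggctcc
ACD: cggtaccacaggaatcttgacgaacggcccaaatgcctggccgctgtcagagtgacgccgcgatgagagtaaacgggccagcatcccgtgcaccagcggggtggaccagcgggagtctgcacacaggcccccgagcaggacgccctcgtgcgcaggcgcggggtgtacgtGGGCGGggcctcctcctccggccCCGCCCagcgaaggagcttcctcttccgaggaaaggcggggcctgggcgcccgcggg
POT1: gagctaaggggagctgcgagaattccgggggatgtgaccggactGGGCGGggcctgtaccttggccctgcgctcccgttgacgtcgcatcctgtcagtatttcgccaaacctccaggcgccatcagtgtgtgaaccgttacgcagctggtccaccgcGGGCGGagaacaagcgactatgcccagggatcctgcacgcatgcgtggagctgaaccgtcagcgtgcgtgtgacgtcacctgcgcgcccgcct
The printed TERT window held 1 E-box and 2 GC boxes, the printed TINF2 window 1 GC box, and the ACD and POT1 windows 2 GC boxes each, and none of the 4 printed windows held the ETS letters. TINF2 has another annotated start, whose window (chr14:24242624-24242873, not printed) held 2 GC boxes and 1 ETS element. The search covered 8 of the 10 genes, with 12 annotated windows between them, and the E-box occurred in 1 window, that of TERT. A GC box occurred in 9 of the 12 and the ETS letters in 3, those of TERF2IP, the other TINF2 start and 1 of the RTEL1 starts. Of 34943 windows of this length over all genes, 6.32% held the E-box, 42.5% a GC box and 8.48% the ETS letters. TERF1 and TERF2 had no entry.

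Across the 10 genes, 3 passed the test in C3 against scramble and 5 in C6 against scramble, and the names differed between the lines. In C3, RTEL1 and TERF2IP were higher and TERF2 was lower. In C6, TERT, TINF2, ACD and POT1 were higher and TERF1 was lower. All adjusted p-values are from edgeR quasi-likelihood tests with Benjamini-Hochberg adjustment across the 13299 genes, and a gene is said to have passed, risen or fallen when its adjusted p was under 0.05. Over all tested genes, 24.3% passed in C3 and 46.7% in C6, so 3 and 5 of 10 lie near those shares. By direction, 2 of 10 were higher and 1 lower in C3, where 12.4% and 11.9% of all genes were, and 4 were higher and 1 lower in C6, where 23.8% and 22.8% were. The median log2 fold change of the 10 genes was -0.07 in C3 and 0.10 in C6, against 0.00 and -0.01 over all genes. C3 and C6 share the scramble libraries, so the comparisons against scramble are not independent. These are bulk libraries, in which less transcript per cell and fewer cells with the transcript cannot be told apart.

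**Figure D1:**
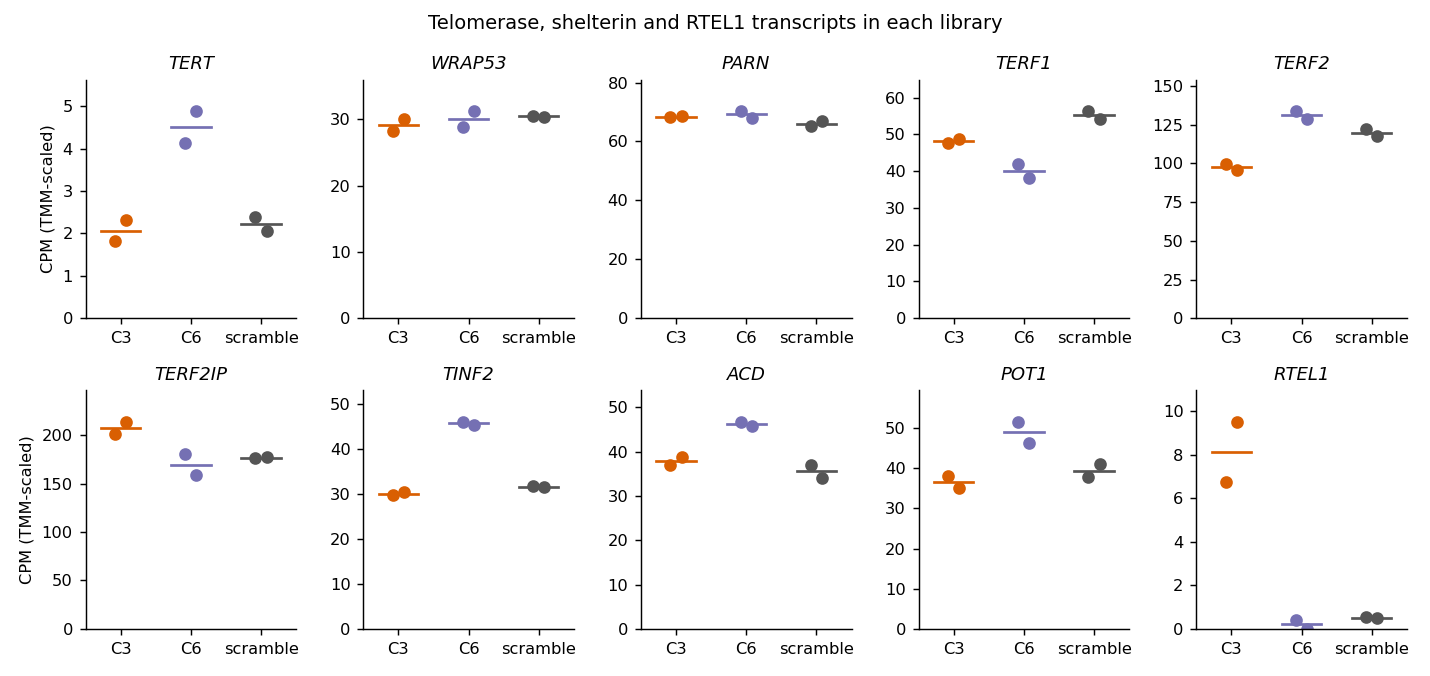
Level of each of the 10 transcripts in every library, in CPM after TMM scaling, with the axis starting at 0. Points are libraries (2 per group) and short lines their means, for C3, C6 and scramble from left to right. TERT, TINF2, ACD and POT1 sit highest in C6, TERF1 lowest in C6, TERF2 lowest and TERF2IP highest in C3, and RTEL1 is high in C3 alone.

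TERT, the reverse transcriptase (chr5:1253167-1295068, minus strand, GRCh38), roughly doubled in C6 and not in C3. Its counts were 56 and 65 in C3, 109 and 136 in C6, and 64 and 55 in scramble libraries. As CPM these were 1.81 and 2.31 in C3, 4.14 and 4.89 in C6, and 2.38 and 2.05 in scramble libraries. Both C6 libraries lay above the other 4, and the C3 and scramble libraries overlapped. The fold change was 2.04 in C6 (log2 1.03 ± 0.25 SE, adjusted p = 0.0034), and the log2 value in C3 was -0.11 ± 0.26 (adjusted p = 0.82). C6 exceeded C3 directly, by 1.13 ± 0.25 on the log2 scale (adjusted p = 0.0015). Its counts were the lowest of the 10 genes outside RTEL1, and its SE was larger than that of any shelterin gene.

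WRAP53 and PARN, which act on the telomerase RNA and particle, did not pass in either line. WRAP53 (chr17:7686071-7703502) had 28.2 and 30 CPM in C3, 28.8 and 31.3 CPM in C6, and 30.5 and 30.4 CPM in scramble libraries. Its log2 fold changes were -0.06 ± 0.09 in C3 (adjusted p = 0.65), and -0.02 ± 0.09 (adjusted p = 0.89) in C6. PARN (chr16:14435701-14630260) had 68.2 and 68.6 CPM in C3, 70.4 and 68 CPM in C6, and 65.3 and 66.8 CPM in scramble libraries. For PARN the log2 fold change in C3 was 0.05 ± 0.07 (adjusted p = 0.64), and that in C6 was 0.07 ± 0.07 (adjusted p = 0.45). With standard errors of this size, differences of a few percent could not be detected for either gene, and larger ones could be missed. TERF1, with an SE of 0.08, was at 87.2% of the scramble level in C3 and did not pass (adjusted p = 0.077).

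Each of the 6 shelterin genes passed against scramble in exactly 1 line: TERF2 and TERF2IP in C3, and TERF1, TINF2, ACD and POT1 in C6. All 6 differed between the lines in the direct test of C6 against C3, in which 49.2% of all genes passed. Over all genes 9.32% passed in C3 and not in C6, and 31.7% in C6 and not in C3.

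TERF1 (TRF1; chr8:73008864-73048123), which binds double-stranded repeats and eases their replication, was the member that was lower in C6. It had 47.7 and 48.7 CPM in C3, 41.9 and 38.0 CPM in C6, and 56.4 and 54.2 CPM in scramble libraries. The groups did not overlap, with scramble highest and C6 lowest. The log2 fold change was -0.47 ± 0.08 in C6 (adjusted p = 0.00017) and -0.20 ± 0.08 in C3 (adjusted p = 0.077). With upper-quartile scaling the C3 value was -0.23 and passed (adjusted p = 0.041). With only C3 and scramble in the fit it was -0.21 and also passed (adjusted p = 0.05 after rounding). C6 was below C3 by 0.27 on the log2 scale (-0.27 ± 0.08, adjusted p = 0.0095), a call lost without C3 library 2 (-0.26, adjusted p = 0.063) or C6 library 2 (-0.20, adjusted p = 0.089). The annotation holds 5 processed pseudogenes of TERF1, none with a row of its own. How reads shared with them were handled was not tested.

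TERF2 (TRF2; chr16:69355567-69386007), which shapes the protective loop at the chromosome end, was lower in C3. It had 99.8 and 95.5 CPM in C3, 134 and 129 CPM in C6, and 122 and 118 CPM in scramble libraries. C3 lay below and C6 above scramble, without overlap. C3 differed from scramble by -0.30 ± 0.06 on the log2 scale (adjusted p = 0.0026), C6 differed from it by 0.13 ± 0.06 (adjusted p = 0.11), and C6 exceeded C3 by 0.43 ± 0.06 (adjusted p = 4.6e-05). Without C3 library 2 the C3 value was -0.27, with an adjusted p of 0.052.

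TERF2IP (RAP1; chr16:75647773-75657432), the partner that TERF2 holds at telomeres, went the other way in C3. It had 201 and 214 CPM in C3, 180 and 159 CPM in C6, and 176 and 177 CPM in scramble libraries. C3 was higher than both other groups, which overlapped. C3 differed from scramble by 0.23 ± 0.07 on the log2 scale (adjusted p = 0.02), C6 differed from it by -0.06 ± 0.07 (adjusted p = 0.49), and C6 was below C3 (-0.29 ± 0.07, adjusted p = 0.0021). The C3 call was lost with upper-quartile scaling (0.20, adjusted p = 0.052) and without scramble library 1 (adjusted p = 0.1), scramble library 2 (adjusted p = 0.11) or C3 library 2 (adjusted p = 0.19). TERF2IP overlaps other genes on the opposite strand, KARS among them over 858 bases. The kit keeps strand, but whether counting used it is stated in none of the labels.

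TINF2 (TIN2; chr14:24239640-24242674), the subunit that links TERF1, TERF2 and ACD, was the shelterin gene with the largest rise in C6. It had 29.8 and 30.5 CPM in C3, 46.2 and 45.4 CPM in C6, and 31.8 and 31.6 CPM in scramble libraries. Both C6 libraries stood well above the other 4. The log2 fold change was 0.53 ± 0.08 in C6 (adjusted p = 6.3e-05) and -0.07 ± 0.08 in C3 (adjusted p = 0.57), and C6 exceeded C3 by 0.60 ± 0.08 (adjusted p = 1.5e-05).

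ACD (TPP1; chr16:67657512-67660260), the subunit that recruits telomerase, was also higher in C6. It had 37.1 and 38.8 CPM in C3, 46.8 and 45.8 CPM in C6, and 37.1 and 34.0 CPM in scramble libraries. C3 and scramble met at 37.1 CPM, and C6 lay above both. The log2 fold change was 0.38 ± 0.08 in C6 (adjusted p = 0.0013) and 0.09 ± 0.08 in C3 (adjusted p = 0.45). C6 exceeded C3 by 0.29 ± 0.08 (adjusted p = 0.0076), which did not hold without C3 library 1 (0.26, adjusted p = 0.074).

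POT1 (chr7:124822386-124929825), which coats the single-stranded overhang, had 38.1 and 35.0 CPM in C3, 51.6 and 46.2 CPM in C6, and 37.7 and 41.1 CPM in scramble libraries. C6 was highest and the other groups overlapped. The log2 fold change was 0.31 ± 0.09 in C6 (adjusted p = 0.0083) and -0.11 ± 0.09 in C3 (adjusted p = 0.41), and C6 exceeded C3 by 0.42 ± 0.09 (adjusted p = 0.00091). The C6 call was lost without scramble library 1 (0.25, adjusted p = 0.085) or C6 library 1 (0.23, adjusted p = 0.089), and it is taken up again beside the neighbouring genes.

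Ratios of counts within a library are given for some pairs of shelterin partners, with no test. TERF2IP and TERF2 had opposite calls in C3, and TINF2 and TERF1 in C6, so their ratios restate those calls. The TERF2IP to TERF2 ratio was 2.01 and 2.24 in C3, 1.34 and 1.23 in C6, and 1.45 and 1.49 in scramble libraries. The TINF2 to TERF1 ratio was 0.625 and 0.627 in C3, 1.1 and 1.2 in C6, and 0.564 and 0.584 in scramble libraries. The TERF2IP to TERF2 ratio was thus highest in C3, and the TINF2 to TERF1 ratio highest in C6. The POT1 to ACD ratio, for the pair that works as a heterodimer, was 1.03 and 0.902 in C3, 1.10 and 1.01 in C6, and 1.01 and 1.21 in scramble libraries, with all groups overlapping.

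RTEL1, the telomere helicase (chr20:63657810-63696253, plus strand), had the widest difference of the 10 genes. It was counted 209 and 268 times in C3 libraries, 11 and 0 times in C6 libraries, and 15 and 13 times in scramble libraries. The CPM values were 6.75 and 9.53 in C3, 0.418 and 0 in C6, and 0.557 and 0.484 in scramble libraries. The count of 0 in C6 library 2 allows a level of up to 0.108 CPM, for counting error only. C3 was 15.5-fold above scramble (log2 3.95 ± 0.53, adjusted p = 0.00068), and C6 was below C3 (log2 -5.29 ± 0.61, adjusted p = 9.6e-05). Against scramble C6 did not pass (log2 -1.33 ± 0.84, adjusted p = 0.23). Both C6 values rest on which C6 library is used. Against scramble C6 was at -6.88 without C6 library 1 (adjusted p = 0.003), when only the library at 0 is left, and at -0.31 without C6 library 2, when it did not pass. Against C3 it was at -10.84 without C6 library 1 and at -4.27 without C6 library 2, and passed both times. The sizes that rest on the library at 0 depend on the fit and are no measure of the fold.

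RTEL1 shares its start and strand with a read-through transcript, RTEL1-TNFRSF6B, which has no row of its own in the table. How reads common to both were assigned was not tested. TNFRSF6B, the decoy receptor gene downstream, had 3 and 38 counts in C3, 0 and 0 in C6, and 0 and 2 in scramble libraries, so that 1 C3 library held nearly all of them. TNFRSF6B was thus, like RTEL1, counted mainly in C3. The next genes downstream were ordered otherwise. ARFRP1, a small GTPase, had 9.88 and 10.4 CPM in C3, 13.6 and 12.5 CPM in C6, and 6.46 and 4.95 CPM in scramble libraries. ZGPAT, a zinc finger repressor, had 22.4 and 24.5 CPM in C3, 32.2 and 32.1 CPM in C6, and 18.5 and 17.6 CPM in scramble libraries. Both were thus highest in C6, where RTEL1 was lowest. ARFRP1 rose in C3 (log2 0.83, adjusted p = 0.00087) and C6 (1.19, adjusted p = 1.2e-05). ZGPAT rose as well (log2 0.37, adjusted p = 0.0097 in C3; 0.83, adjusted p = 4.8e-06 in C6), though its C3 call was lost without scramble library 2 (adjusted p = 0.077) or C3 library 2 (adjusted p = 0.11). These flanking genes were chosen after their values were seen. Subtracting the shift of the neighbouring genes, a step described below, left ZGPAT at -0.05 for C3 and 0.05 for C6. Neither value passed (edgeR, adjusted p = 0.8 and 0.75). After the same step ARFRP1 fell short of the threshold for C3 (0.40, adjusted p = 0.071). The C6 call of ARFRP1 was not among those lost.

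**Figure D2:**
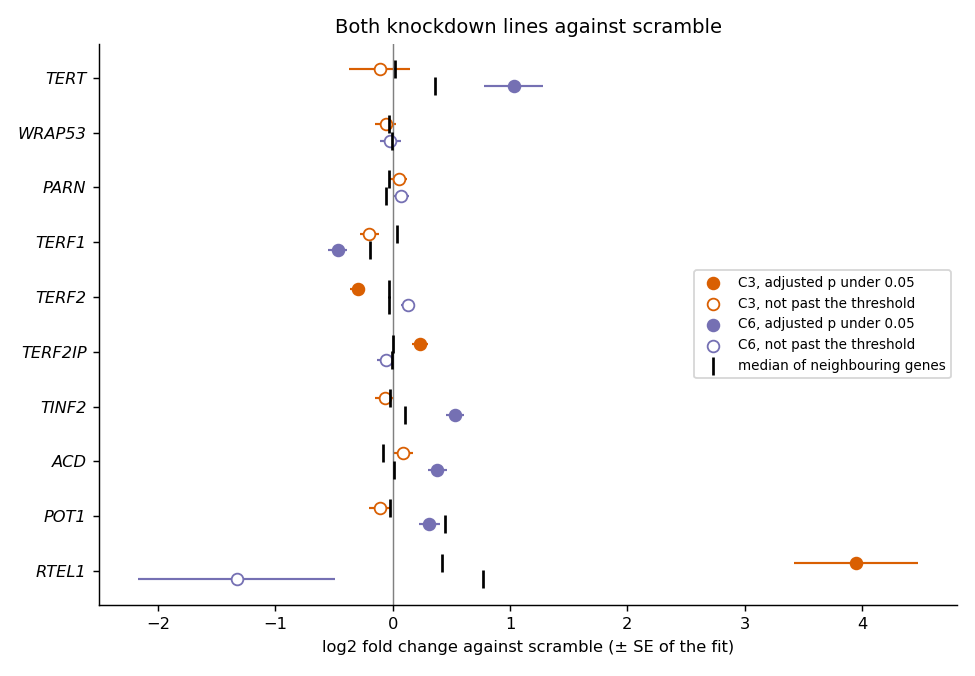
Log2 fold change against scramble of each gene in C3 and C6, with the SE of the fit as bars, filled points for an adjusted p under 0.05 and black ticks for the median of the neighbouring genes. TERT (1.03), TINF2 (0.53), ACD (0.38) and POT1 (0.31) rose in C6, and only POT1 among these 4 lies below the tick of its neighbours.

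The direct comparison of C6 with C3 separated 8 of the 10 genes, 5 higher and 3 lower in C6, in a comparison in which 25.1% and 24.1% of all genes were called higher and lower. TERT, TERF2, TINF2, ACD and POT1 were higher in C6 than in C3, and TERF1, TERF2IP and RTEL1 were lower. WRAP53 and PARN, with C6 minus C3 values of 0.05 (adjusted p = 0.69) and 0.02 (adjusted p = 0.86), did not pass. The libraries of C6 and C3 did not overlap for the same 8 genes, as for 74.1% of all genes. They did not overlap between C3 and scramble for 7 of 10 (62.9% of all genes) nor between C6 and scramble for 8 of 10 (72.9%).

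No gene of the 10 passed in both lines with the same sign in the main edgeR fit, while 10.0% of all tested genes did. At an unadjusted p under 0.05, 1 gene met this condition, TERF1, and with DESeq2 the count was 0 at either threshold. TERF1, lower in C6, also passed in C3 with upper-quartile scaling (-0.23, adjusted p = 0.041) and with only C3 and scramble in the fit (-0.21, adjusted p = 0.05 after rounding). It did so too, as given below, with the shift of its neighbours subtracted. For the mean of both lines against scramble, 3 of 10 passed, against 32.9% of all genes (2 higher and 1 lower, against 16.6% and 16.3%). TERF1 was lower (log2 -0.33 ± 0.07, adjusted p = 0.0013), and TINF2 (0.23 ± 0.07, adjusted p = 0.02) and ACD (0.24 ± 0.07, adjusted p = 0.018) were higher. The mean of TINF2 combines C6 and C3 values of opposite sign. The TINF2 call was lost without scramble library 1 (adjusted p = 0.082), scramble library 2 (adjusted p = 0.1) or C3 library 2 (adjusted p = 0.061). The ACD call was lost without scramble library 2 (adjusted p = 0.19) or C3 library 2 (adjusted p = 0.061). Neither passed with DESeq2 (adjusted p = 0.086 for TINF2 and 0.071 for ACD) or with upper-quartile scaling (0.061 and 0.057).

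Neighbouring genes were set beside each member, because a stretch of chromosome that shifts as a whole moves every gene on it. The closest tested genes, up to 25 on each side, were taken. Around POT1 the 50 neighbours had a median log2 fold change of 0.45 in C6, and 78% of them were higher, while the median in C3 was -0.02. POT1 itself, at 0.31, lay below its neighbours. With the local shift subtracted, POT1 was at -0.11 in C6 (adjusted p = 0.35) and at -0.05 in C6 against C3 (adjusted p = 0.66), so neither call held. Around TERT the 40 neighbours had a median of 0.36 in C6, with 85% higher, and 0.02 in C3. TERT stood above them, and with the shift subtracted its C6 value was 0.67 (adjusted p = 0.045) and its C6 against C3 value 0.79 (adjusted p = 0.018).

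Around RTEL1 the 44 neighbours had medians of 0.42 in C3, with 86.4% higher, and 0.77 in C6, with 95.5% higher. RTEL1 was above its neighbours in C3 and below them in C6. Around TERF1 the C6 median of 50 neighbours was -0.19. With the shift subtracted TERF1 was at -0.28 in C6 (adjusted p = 0.01) and -0.23 in C3 (adjusted p = 0.041), and the difference between the lines was -0.05 (adjusted p = 0.67). Around TINF2 the C6 median was 0.10, and TINF2 was still higher with the shift subtracted (0.42, adjusted p = 0.00066). The neighbours of WRAP53, PARN, TERF2, TERF2IP and ACD had C6 medians between -0.06 and 0.01. In C3 the neighbours of ACD had a median of -0.08, with 32% higher. With the shift subtracted, the C6 against C3 call of ACD was lost (0.19, adjusted p = 0.069). DNA copy number was not measured, and whether it differs between the lines was not tested.

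**Figure D3:**
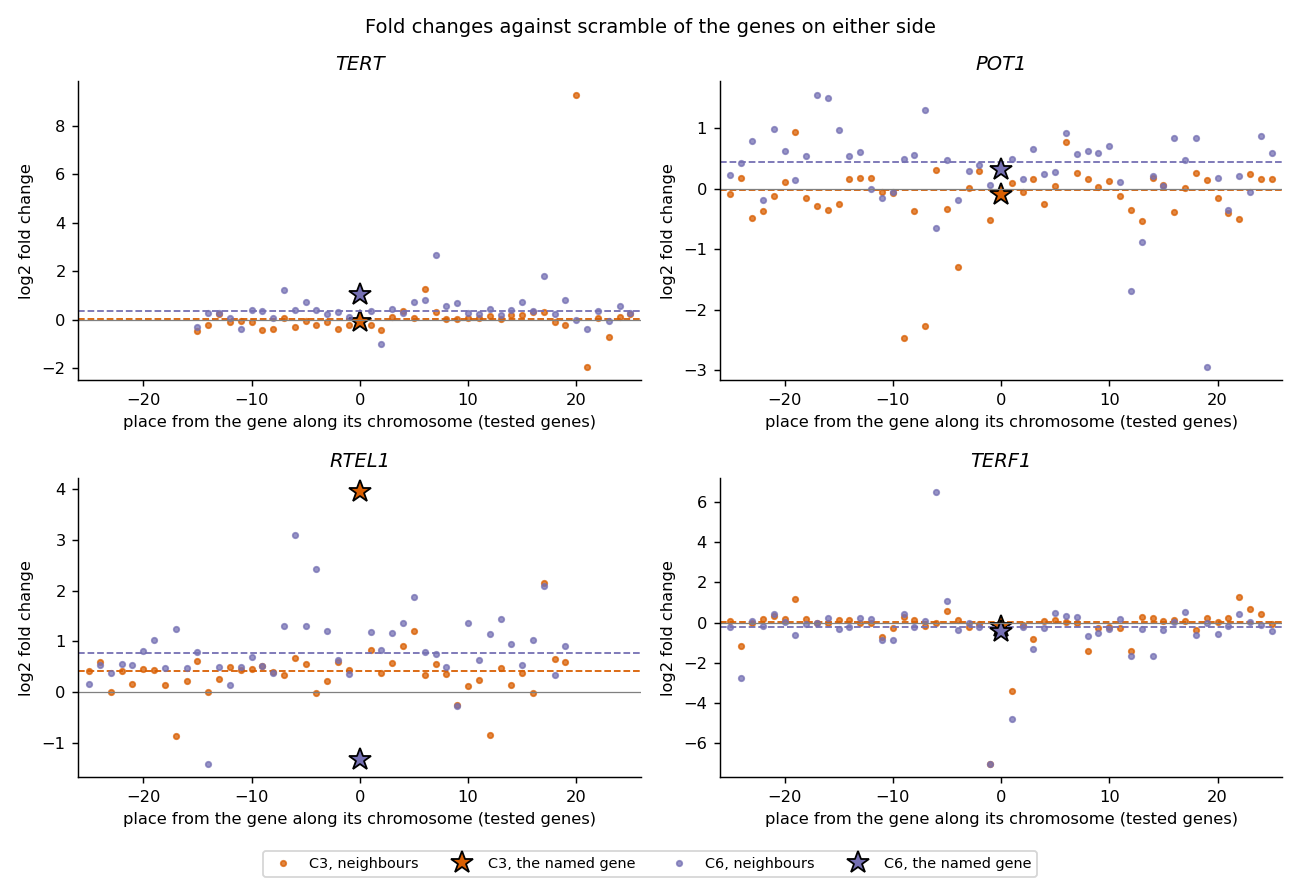
Log2 fold change against scramble (vertical axis) of the tested genes at each place before and after TERT, POT1, RTEL1 and TERF1 along the chromosome (horizontal axis). Stars are the named gene, small points its neighbours and dashed lines the median of the neighbours, for C3 and C6. The C6 neighbours of TERT (median 0.36), POT1 (0.45) and RTEL1 (0.77) lie mostly above 0, and the POT1 star falls within its neighbours.

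Levels between genes were compared as CPM per kb of exon, using the joined coding-transcript exons of GENCODE v29. TERF2IP was the most abundant, with 97.9 in C3, 79.9 in C6 and 83.4 CPM per kb in scramble cells. TERF2 followed with 30 in C3, 40.4 in C6 and 36.9 in scramble cells, and PARN with 22.2, 22.4 and 21.4 CPM per kb in the same groups. ACD (18.4 in C3, 22.4 in C6 and 17.2 in scramble cells), TERF1 (14.5, 12.0 and 16.6) and TINF2 (13.8, 21.0 and 14.6) lay close together. In scramble cells ACD and TERF1 did not differ beyond their spread. In C6 the order of TERF1 and TINF2 was clear, with TINF2 at 21.0 and TERF1 at 12.0 CPM per kb, level with POT1 at 12.0. POT1 had 8.95 in C3 and 9.65 in scramble cells, and WRAP53 6.99 in C3, 7.22 in C6 and 7.31 in scramble cells. TERT was far lower, at 0.513 in C3, 1.12 in C6 and 0.551 CPM per kb in scramble cells. RTEL1 was the lowest in C6 (0.0402) and scramble cells (0.10) but stood above TERT in C3 (1.57).

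**Figure D4:**
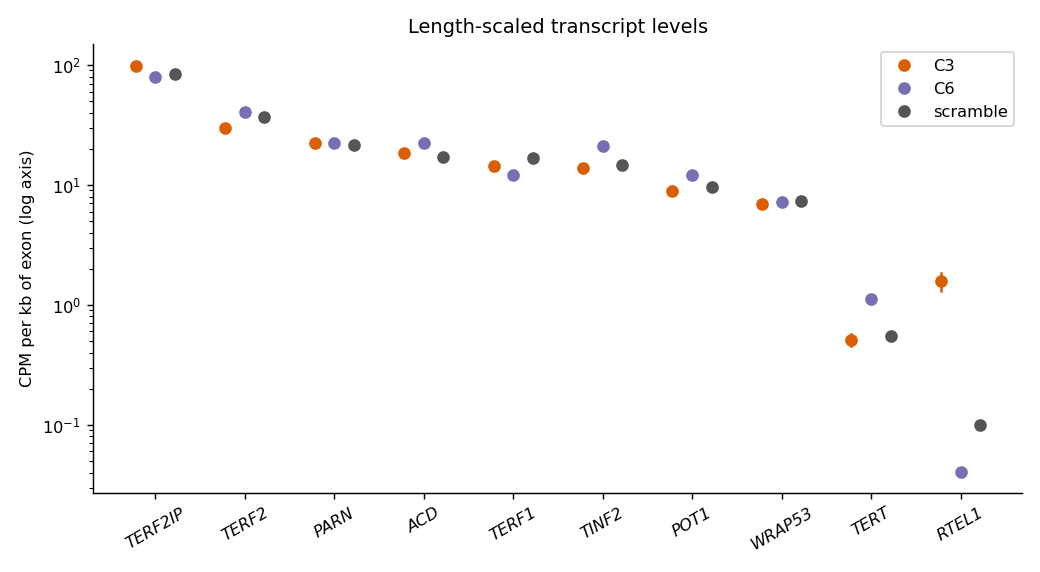
Mean level of each gene per kb of exon, on a log axis, in C3, C6 and scramble cells, ordered by the scramble level. Vertical lines join the 2 libraries of a group (a library at 0 is not drawn). TERF2IP is highest in every group (79.9 to 97.9 CPM per kb), and TERT and RTEL1 are the lowest.

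Other genes of telomere biology were taken as 7 lists with 142 tested genes in all. In C3, 30 of them passed (20 higher and 10 lower), or 21.1% against 24.3% of all genes. In C6, 75 passed (26 higher and 49 lower), or 52.8% against 46.7%. Over all genes, 12.4% were called higher and 11.9% lower in C3, and 23.8% and 22.8% in C6. The counts of each list below are to be read beside these shares. The median log2 fold change of the 142 genes was 0.05 in C3 and -0.08 in C6. From each list, up to 4 genes with the smallest p in the mean of both lines are named below, with log2 values for C3 and then C6. Calls against scramble in C3 without C3 library 2 fell to 12 of the 142 genes.

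**Figure D5:**
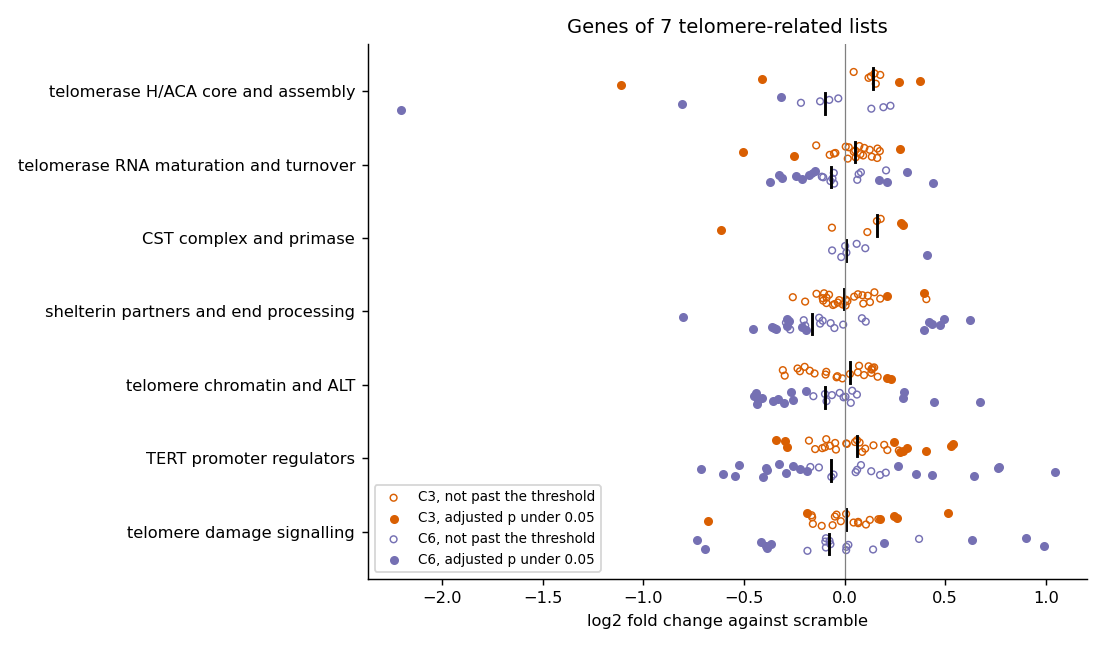
Log2 fold change against scramble of every tested gene of the 7 lists, in C3 and C6, with filled points for an adjusted p under 0.05 and black bars for list medians. DKC1 is the point farthest to the left (-2.21 in C6 and -1.11 in C3), and most filled C6 points lie below 0.

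In the H/ACA list, which holds DKC1, the other proteins of its particle and their assembly factors, 2 of 10 genes rose and 2 fell in C3, and 3 fell in C6. No H/ACA gene rose in C6 by edgeR or DESeq2, and 1 did so at an unadjusted p under 0.05. DKC1, the target of the hairpin, accounts for 1 of the falls in each line. NAF1, an assembly factor, fell in both lines (-0.41 and -0.81), though the mean of both (-0.61) did not pass with the neighbour shift subtracted (-0.15, adjusted p = 0.13). NHP2, a core protein, rose in C3 (0.27) and had 0.19 in C6 (adjusted p = 0.051). GAR1, another core protein, rose in C3 (0.37) and had 0.23 in C6 (adjusted p = 0.15).

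In the list of telomerase RNA maturation and turnover, 1 of 22 genes rose and 2 fell in C3, and 4 rose and 7 fell in C6. TENT4A, a non-canonical poly(A) polymerase, had 0.16 in C3 and rose in C6 (0.44). DCP2, the decapping enzyme, fell in C3 (-0.51) and had -0.11 in C6. DIS3, an exosome nuclease, had -0.05 in C3 and fell in C6 (-0.31). SRRT (ARS2), a cap-complex partner, rose in C3 (0.28) and had 0.07 in C6. With the neighbour shift subtracted, the mean of both lines lost its call for TENT4A (0.09, adjusted p = 0.35) and turned its sign for DIS3 (0.09, adjusted p = 0.25) and SRRT (-0.12, adjusted p = 0.094).

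In the list of the CST complex and primase, which fill in the strand opposite the overhang, 2 of 7 genes rose and 1 fell in C3, and 1 rose in C6. For the mean of both lines 0 passed with edgeR or DESeq2, and 1 did so at an unadjusted edgeR p under 0.05. Over all genes 32.9% passed in that mean with edgeR. The polymerase subunits POLA2 (0.28) and POLA1 (0.29) rose in C3, with 0.10 and -0.06 in C6. The primase subunits PRIM1 (0.16 and 0.00) and PRIM2 (0.18 and 0.06) passed in neither line. STN1, a CST subunit outside that naming rule and picked after its values were seen, had 19.6 and 22.6 CPM in C3, 43.6 and 42.2 CPM in C6, and 34.7 and 29.9 CPM in scramble libraries. It was lower in C3 (log2 -0.61, adjusted p = 0.00038) and higher in C6 (0.41, adjusted p = 0.0028), the C6 call being lost without scramble library 2 (0.31, adjusted p = 0.054).

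Among 28 shelterin partners and end-processing genes, 2 rose in C3, and 6 rose and 10 fell in C6. DNA2, a nuclease and helicase, had -0.20 in C3 and fell in C6 (-0.36). PINX1, which binds TERF1 and inhibits telomerase, had -0.08 in C3 and rose in C6 (0.62). The helicase WRN had -0.03 in C3 and rose in C6 (0.48), and NBN, of the MRN complex, had -0.03 in C3 and fell in C6 (-0.35). With the neighbour shift subtracted, the mean of both lines lost its call for PINX1 (0.12, adjusted p = 0.24), WRN (0.04, adjusted p = 0.67) and NBN (-0.15, adjusted p = 0.084). Among 25 genes of telomeric chromatin and the recombination-based pathway of lengthening (ALT), 2 rose in C3, and 4 rose and 11 fell in C6. H3-3B, a gene for histone H3.3, had -0.04 in C3 and rose in C6 (0.67). The histone chaperone ASF1A had 0.16 in C3 and rose in C6 (0.45). The orphan receptor NR2C1 (-0.17 and -0.45) and the heterochromatin protein CBX5 (-0.23 and -0.44) fell in C6, and their C6 against C3 values were -0.28 (adjusted p = 0.014) and -0.21 (adjusted p = 0.072).

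Among 29 regulators of the TERT promoter, 7 rose and 3 fell in C3, and 7 rose and 12 fell in C6. BHLHE40, a repressor of the basic helix-loop-helix class, rose in both lines (0.25 and 0.77). MXD1, which competes with MYC for MAX at E-boxes, also rose in both (0.29 and 0.64). ETS1, an activator of the ETS class, fell in C3 (-0.28) and rose in C6 (1.04), and its C6 against C3 value was 1.33 (adjusted p = 3.5e-10). MYC, an E-box activator outside the naming rule and chosen after its values were seen, had 1033 and 1042 CPM in C3, 643 and 648 CPM in C6, and 852 and 860 CPM in scramble libraries. It rose in C3 (0.28, adjusted p = 0.0016) and fell in C6 (-0.41, adjusted p = 2.3e-05). The order of MYC over the groups was C3, scramble, C6, and that of TERT placed C6 first. Any link between the levels of these regulators and TERT was not tested.

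Among 21 genes of damage signalling at telomeres, 4 rose and 2 fell in C3, and 4 rose and 6 fell in C6. POLQ, the polymerase of an error-prone end-joining pathway, had -0.16 in C3 and fell in C6 (-0.73). SHLD3, a shieldin subunit, rose in both lines (0.51 and 0.90), and XRCC6 (Ku70) also did (0.26 and 0.20). The kinase CHEK2 had -0.16 in C3 and fell in C6 (-0.70).

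Apart from DKC1, 13 of the genes that the naming rule takes from the lists passed in C3 and 19 in C6. Of these calls, 11 and 4 were lost under at least 1 alternative. Without scramble library 1 the C3 calls of GAR1, POLA2, BHLHE40 and SHLD3 were lost. Without scramble library 2 those of NHP2, GAR1, BHLHE40, MXD1, ETS1, SHLD3 and XRCC6 were lost. Without C3 library 1 the same happened to NHP2, POLA2, POLA1, BHLHE40, MXD1 and SHLD3, and without C3 library 2 to NHP2, GAR1, SRRT, POLA2, ETS1, SHLD3 and XRCC6. The adjusted p of these lost calls ran from 0.051 (MXD1) to 0.42 (GAR1). With the neighbour shift subtracted, the C3 calls of NAF1 (0.05, adjusted p = 0.72), BHLHE40 (0.15, adjusted p = 0.11), GAR1 (0.35, adjusted p = 0.054) and SHLD3 (0.45, adjusted p = 0.059) were lost. In C6 TENT4A had 0.06 (adjusted p = 0.62), WRN 0.05 (adjusted p = 0.62) and DIS3, with its sign turned, 0.22 (adjusted p = 0.011). XRCC6 lost its C6 call without scramble library 2 (adjusted p = 0.12) or C6 library 1 (adjusted p = 0.057) and with upper-quartile scaling (0.13, adjusted p = 0.084). GAR1 lost its C3 call with that scaling too (0.34, adjusted p = 0.062), and with DESeq2 the C3 calls of GAR1 (adjusted p = 0.14), POLA2 (adjusted p = 0.082) and SHLD3 (adjusted p = 0.18) were lost. DCP2 kept its C3 call under every alternative run.

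Among the 3 of the 10 telomerase and shelterin genes that passed in the mean of both lines, TERF1 had the largest change, and the tested genes with the most similar profile over the 6 libraries were RTTN, PIGB and HJURP. Their root mean square difference from TERF1, on centred log2 CPM, was 0.024, 0.024 and 0.027. HJURP, the chaperone of the centromeric histone, had 79.7 and 82.6 CPM in the C3 libraries and 67.2 and 63.1 CPM in the C6 libraries, against 91.8 and 90.7 CPM in the scramble libraries.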

How the data were processed

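Polyadenylated RNA was sequenced in paired ends after a stranded kit, per the labels' protocols. The deposited values are whole-number counts per gene made by the authors, with no normalization, in 1 table of 19672 genes and 6 libraries. The submitters' processing notes name Trimmomatic 0.38, HISAT2 2.1.0, StringTie 2.1.3b, DESeq2 and the build hg38. The sources used here do not give their order, the annotation or the use of strand. Each column was matched to a library by its name, and 4118 genes at 0 in every library were not tested.

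Genes were filtered with filterByExpr, scaled by TMM and tested with edgeR 4.0.16 (robust quasi-likelihood fit, Benjamini-Hochberg over 13299 genes, threshold 0.05) on all 6 libraries as 3 groups. Counts simulated from the means and spread of that fit were tested before its contrasts. Gene positions came from RefSeq, with 13236 tested genes placed, and strands, overlaps and exon lengths from GENCODE v29. The alternatives were 2 other scalings, 2 other filters, DESeq2, a replicate block, fits of only the groups compared, the 4 knockdown libraries as 1 group, an offset of the running median of 51 neighbouring genes, and leaving out each library. The correlations of same-numbered libraries' deviations were -0.0465 (C3 and scramble), 0.0644 (C6 and scramble) and 0.0252 (C6 and C3), so the numbers were not taken as pairs.

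The genes and the lists were chosen with earlier results of these data known. All 10 genes and DKC1 were named, as were, from each list, up to 4 genes with the smallest p in the mean of both lines, and the 3 genes with the profile nearest to the member with the largest change in that mean. An item that this rule or a marker list would name is not reported here.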

Additional observations from a re-analysis of the deposited data

Results flagged for a closer look

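For 8 genes the effect differed between the knockdown lines, by the test of C6 against C3 in edgeR's quasi-likelihood fit. On the log2 scale the C6 minus C3 difference was 1.13 for TERT, -0.27 for TERF1, 0.43 for TERF2, -0.29 for TERF2IP, 0.60 for TINF2, 0.29 for ACD, 0.42 for POT1 and -5.29 for RTEL1. The RTEL1 value moved to -10.84 without C6 library 1, when only a library at 0 is left, and to -4.27 without C6 library 2. Of all tested genes 49.2% passed the same test. With the neighbour shift subtracted, TERF1 (-0.05), POT1 (-0.05) and ACD (0.19) no longer passed.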

How the results depend on the processing

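Of 560 values of the 10 genes under the alternatives, 519 kept their direction and their side of the threshold. Another 25 kept their direction and lost a call, 5 gained one, and 11 changed sign. Of those 11, 2 had been called, both for POT1 with the neighbour shift subtracted, and these lost their calls too. Leaving out 1 library moved the genes called from 1946 to 3267 in C3 against scramble (1946 without scramble library 2 and 1947 without C3 library 2), 4584 to 6006 in C6, 2444 to 4041 in the mean of both and 5155 to 6423 in C6 against C3. The members called then ranged over 1 to 3, 4 to 5, 1 to 4 and 7 to 8, and the list genes called over 12 to 31, 53 to 70, 21 to 40 and 64 to 77. Treating the 4 knockdown libraries as 1 group left 80 genes called in the mean comparison, 0 members and 0 list genes by edgeR (1 and 19 at an unadjusted p under 0.05), and DKC1 at -1.56 (adjusted p = 0.12). Members called in the mean fell to 1 with upper-quartile scaling and to 1 with DESeq2, and in C6 against C3 to 5 with the neighbour shift subtracted. That shift turned POT1 to -0.11 in C6, -0.08 in the mean and -0.05 in C6 against C3, DIS3 to 0.22 in C6 and 0.09 in the mean, NAF1 to 0.05 in C3, SRRT to -0.12 in the mean and, in C3, ZGPAT to -0.05 (its mean to -0.00). Signs also turned for TERT in C3 without scramble library 1 (0.01) or C3 library 1 (0.06; range -0.29 to 0.06), WRAP53 in C6 without C6 library 1 (0.04) and in C6 against C3 without C6 library 2 (range -0.01 to 0.11), TERF2IP in C6 without C6 library 2 (range -0.15 to 0.03), STN1 in the mean without scramble library 1 (range -0.20 to 0.01), RTEL1 in the mean without C6 library 1 (-1.47), and PARN in C6 against C3 with upper-quartile scaling (-0.01) or without C6 library 1 (-0.01). RTEL1 passed in the mean without C6 library 2 (1.82, adjusted p = 0.0044). The cause was not tested. A fit with the replicate number as a block called 2935 genes in C3, 5878 in C6, 4014 in the mean and 6243 in C6 against C3, with 3, 5, 3 and 8 members; ARFRP1 lost its C6 against C3 call (adjusted p = 0.051) and GAR1 its mean call (adjusted p = 0.05). Counts were 0 to 268 for RTEL1 and 55 to 136 for TERT, and depth limits the precision of both.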
